A study of Mus musculus with 18 samples.

Results

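The sebaceous gland lipid genes were 10 genes that make or handle the lipids of sebum, namely Scd1, Scd3, Awat1, Awat2, Mc5r, Soat1, Dgat2, Far2, Cidea and Lpl. They were taken by symbol, and all 10 were present among the 23951 genes of the expression table. mRNA had been sequenced from hair follicle stem cells (HF-SCs) and basal keratinocytes (b-KCs) of mouse ear skin, to compare mutant and non-mutant cells during psoriasis-like disease. The 18 libraries formed 6 groups of 3, from 6 mice.

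DKO* mice carried floxed JunB and c-Jun (JunB f/f, c-Jun f/f), a tamoxifen-dependent Cre recombinase under the keratin 5 promoter (K5-Cre-ERT) and the mT/mG reporter. In this reporter, cells switch from membrane Tomato to membrane GFP when Cre has acted, so GFP+ cells were recombined (mutant GFP) and Tomato+ cells were not (non-mutant Tom). Control (Co) mice carried the same K5-driven Cre and the mT/mG reporter with wild-type or heterozygous JunB and c-Jun. Mice of both genotypes were induced at 8 weeks of age with 4 daily injections of 2 mg tamoxifen, and cells were collected on day 7. HF-SCs were sorted as CD45-, CD49f-high, CD34+ cells and b-KCs as CD45-, CD49f-high, CD34- cells of trypsinised ear epidermis. Each cell type thus had a Co, a GFP and a Tom group, written HF-SC Co, b-KC Tom and so on. The labels name no reporter colour for the Co libraries, whereas the GFP and Tom libraries were sorted by colour. Co mice were 810, 825 and 828, DKO* mice were 814, 815 and 817, and per-mouse values are given in these orders throughout. Each DKO* mouse gave all 4 of its populations and each Co mouse gave both of its own, so libraries of different groups were not independent. Keratin 5 is active in basal cells of the epidermis, the hair follicle and the sebaceous gland, and the b-KC gate did not separate these.

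Levels are given in FPKM (fragments per kilobase of transcript, scaled to the mapped reads of the library), a unit per transcript length in which genes can be set side by side. The steps between low values corresponded to between 16500000 and 26280000 reads per library, at which 3 reads on a transcript of 1 kb give 0.114 to 0.182 FPKM; such limits cover counting error only. Jun (c-Jun) was 30.4 to 88.4 FPKM in HF-SC GFP against 835 to 1086 in HF-SC Co, and 29.6 to 65.4 in b-KC GFP against 876 to 1000 in b-KC Co. Junb was 37.2 to 77.5 FPKM over the 6 GFP libraries and 436 to 772 over the 6 Co libraries. The Tom libraries lay between, at 163 to 614 FPKM for Jun and 208 to 402 for Junb. Cd34, the gating marker of the bulge, was 161 to 889 FPKM in HF-SC libraries and at most 2.53 in b-KC libraries. Krt14 was listed at 0 in 3 b-KC libraries of DKO* mice and Krt15 in 1 HF-SC Co library, so an exact 0 in this table can be a failed estimate. None of the 10 members was listed at 0 in any library. Mice 810 and 817 had transcripts of the Y-linked gene Eif2s3y at 27.3 to 51.5 FPKM, whereas the other 4 mice had at most 0.0909 and expressed Xist, which places 1 Co and 1 DKO* mouse apart from the rest.

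Sebaceous glands sit on the hair follicle and are made of sebocytes, which fill with lipid droplets and then burst to release sebum onto the skin. Mouse sebum is rich in wax esters, triglycerides and cholesterol esters. Stearoyl-CoA desaturases (Scd1, Scd3) put a double bond into fatty acids, and fatty acyl-CoA reductase 2 (Far2) turns fatty acids into the alcohols of waxes. The acyltransferases then join the parts, Awat1 and Awat2 to wax esters, Dgat2 to triglycerides and Soat1 to cholesterol esters. Cidea is a lipid droplet protein, lipoprotein lipase (Lpl) frees fatty acids from circulating lipoproteins for uptake, and the melanocortin 5 receptor (Mc5r) is needed for sebum secretion in mice. In bulk samples such as these, fewer cells of a type and less RNA per cell cannot be told apart.

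The deleted genes encode subunits of the transcription factor AP-1, so promoter sequences are shown for 3 genes that differed in level between populations. Each runs from 250 bases before to 50 after the gene's start, as given by RefSeq for GRCm38.p6, at chrX:100571997-100572296 (plus strand) for Awat1, chr6:148047166-148047465 (plus strand) for Far2 and chr1:156474279-156474578 (minus strand) for Soat1. Capitals mark a CCAAT box (CCAAT) or a GC box (GGGCGG) on either strand.
Awat1: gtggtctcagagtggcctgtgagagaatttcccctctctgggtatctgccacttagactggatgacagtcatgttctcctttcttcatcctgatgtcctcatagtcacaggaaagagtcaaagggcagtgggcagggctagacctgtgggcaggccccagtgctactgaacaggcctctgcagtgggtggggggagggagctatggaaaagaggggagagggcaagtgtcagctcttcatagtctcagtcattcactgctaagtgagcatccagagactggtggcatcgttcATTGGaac
Far2: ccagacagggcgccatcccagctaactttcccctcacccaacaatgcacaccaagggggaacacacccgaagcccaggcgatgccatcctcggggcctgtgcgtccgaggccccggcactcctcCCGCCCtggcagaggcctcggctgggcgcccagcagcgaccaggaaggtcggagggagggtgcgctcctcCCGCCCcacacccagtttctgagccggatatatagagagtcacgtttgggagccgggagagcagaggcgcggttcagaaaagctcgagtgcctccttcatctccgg
Soat1: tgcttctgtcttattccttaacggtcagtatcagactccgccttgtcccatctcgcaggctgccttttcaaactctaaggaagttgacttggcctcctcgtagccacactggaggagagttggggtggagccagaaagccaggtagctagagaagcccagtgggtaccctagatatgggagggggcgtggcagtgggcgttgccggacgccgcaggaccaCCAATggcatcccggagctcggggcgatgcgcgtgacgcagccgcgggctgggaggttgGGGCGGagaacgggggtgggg
Promoters of 5 of the 10 genes were matched (Awat1, Awat2, Far2, Scd3 and Soat1, with 6 windows in all, since Awat2 had 2 starts). A total of 7 letter patterns were searched on both strands, with overlapping matches allowed. The AP-1 element TGANTCA, the cyclic AMP response element TGACGTCA, TATAAA, the sterol element TCACNCCAC and the direct repeat bound by PPAR receptors had no match in the 6 windows. Those letters occurred in 7.81%, 1.79%, 13.6%, 1.24% and 0.0396% of 32851 mouse promoters of the same length. CCAAT was present in 37.4% and GGGCGG in 35.7% of them. A missing match says only that the letters are not within these windows. For Scd1, Dgat2, Cidea, Lpl and Mc5r no promoter window was searched, which says nothing about their annotation in RefSeq.

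Positions are from NCBIM37 (mm9), the build of the reads' alignment. Scd1 lies on the minus strand at chr19:44468941-44482199 and Scd3 on the plus strand at chr19:44277759-44318506. Awat1 (chrX:97767590-97773544, plus strand) and Awat2 (chrX:97597560-97638056, minus strand) both lie on the X chromosome. Soat1 is at chr1:158358239-158404459 (minus strand), Dgat2 at chr7:106302173-106331223 (minus strand) and Far2 at chr6:147995781-148131280 (plus strand). Cidea is at chr18:67503218-67527448, Mc5r at chr18:68497250-68499377 and Lpl at chr8:71404390-71431347, all on the plus strand. The desaturases share sequence, and within 2 mismatches 9.07% of the 51-base stretches of Scd1 occurred in Scd3 and 12.6% of those of Scd3 in Scd1, so reads of the low Scd3 are uncertain. Far2 shared 14.3% of its 51-base stretches exactly with other genes, mainly with Ergic2, which overlaps its 3' end on the opposite strand and cannot be told apart there in unstranded libraries. No 51-base stretch of Awat1, Awat2, Mc5r, Dgat2 or Cidea occurred in another gene.

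**Figure D1:**
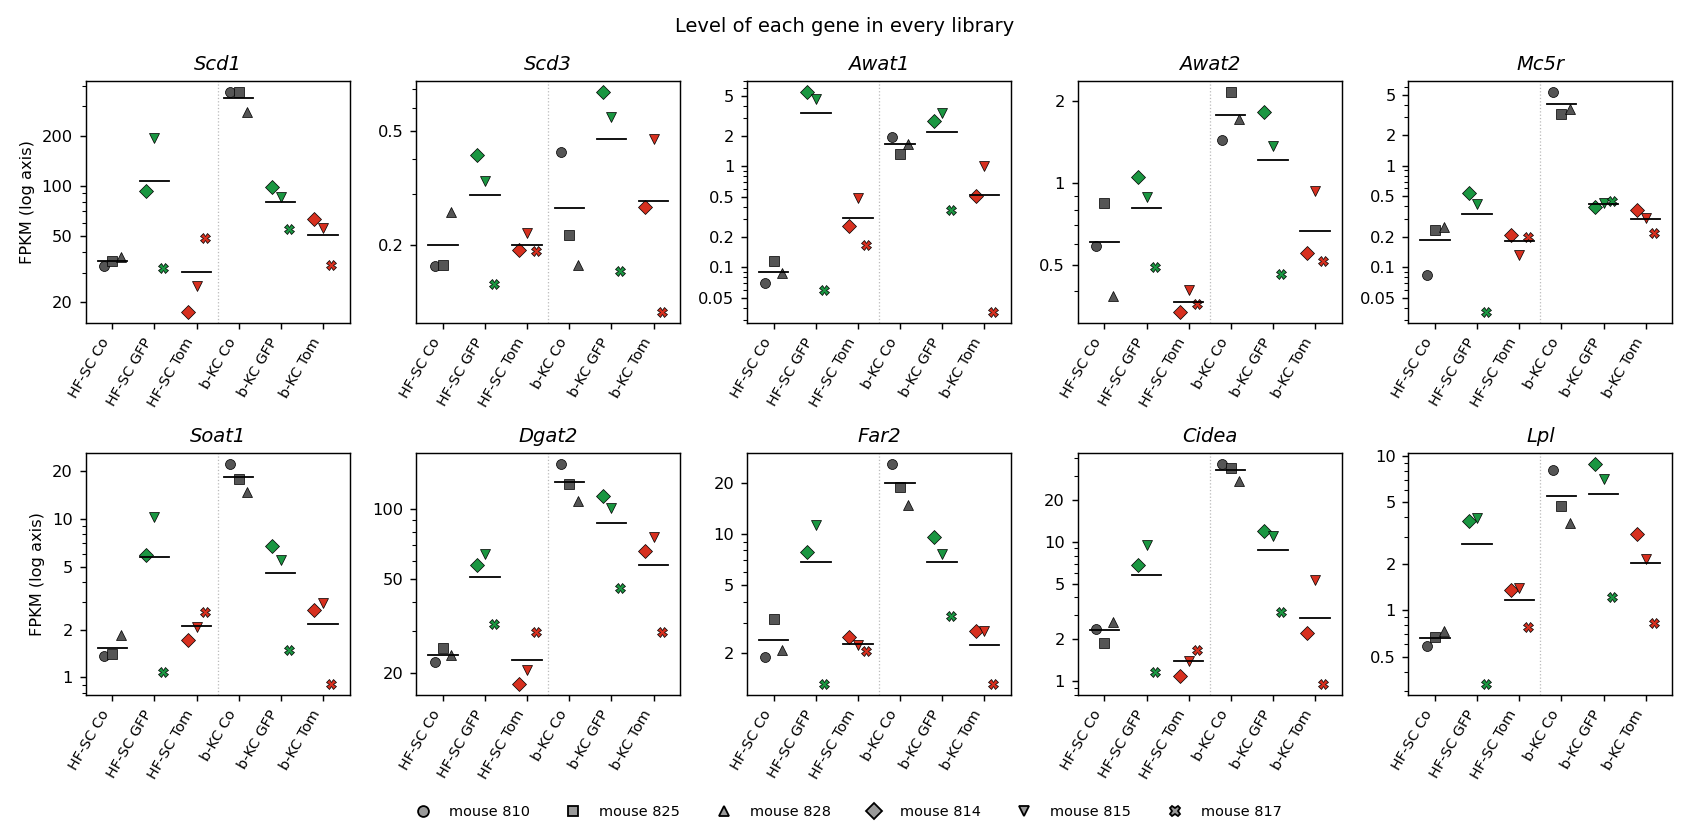
FPKM of each of the 10 genes in every library on a log axis, with the 6 groups along the horizontal axis (grey Co, green GFP, red Tom), a symbol for each mouse and a bar at the group mean. The 3 b-KC Co libraries stand highest for Scd1, Mc5r, Soat1, Far2 and Cidea, and the HF-SC GFP library of mouse 817 lies well below those of 814 and 815 for most genes.

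In control skin, the b-KC gate held far more of these transcripts than the HF-SC gate. Of the 9 genes tested, 8 were lower in HF-SC Co than in b-KC Co, and all 9 had HF-SC libraries below every b-KC library. Both counts include Mc5r, which passed the filter only through b-KC Co. Among all 12751 genes tested, 27.3% were called lower and 24.6% higher in this comparison, and in 37.4% every HF-SC library lay below every b-KC library. The median log2 difference was -2.23 over the 10 genes and -0.06 over all genes tested. Differences and their standard errors (SE) are on the log2(FPKM + 1) scale, from limma with Benjamini-Hochberg adjustment over all genes tested, and "called" means an adjusted p under 0.05.

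Scd1, the main desaturase of skin, and Dgat2 were the most abundant members in every group. Scd1 measured 366, 366 and 277 FPKM in b-KC Co and 32.8, 35.4 and 37.2 in HF-SC Co. The means differed 9.57-fold, with a log2 difference of -3.21 ± 0.49 (SE) and an adjusted p of 5.39e-05. Dgat2, which makes triglycerides, had 155, 127 and 108 FPKM in b-KC Co against 22.2, 25.4 and 23.8 in HF-SC Co. This was 5.47-fold lower in HF-SCs (-2.39 ± 0.36, adjusted p = 5.80e-05). Together the 10 genes summed to 452.9 to 622.6 FPKM in b-KC Co and 62.1 to 69.3 in HF-SC Co, of which Scd1 made up 51.1 to 63.6%.

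Soat1, the cholesterol esterifying enzyme, had 22.2, 17.8 and 14.8 FPKM in b-KC Co and 1.36, 1.40 and 1.85 in HF-SC Co, 11.9-fold lower (log2 difference -2.91 ± 0.50, adjusted p = 0.000171). Far2 had 25.7, 19.0 and 14.8 FPKM against 1.89, 3.17 and 2.07, an 8.35-fold lower mean in HF-SCs (-2.61 ± 0.47, adjusted p = 0.000261). Both genes were separated between the populations with no overlap. Cidea, the droplet protein, had 36.3, 34.1 and 27.7 FPKM in b-KC Co and 2.39, 1.89 and 2.68 in HF-SC Co, 14.1-fold lower (-3.34 ± 0.53, adjusted p = 7.88e-05). Mc5r had 5.34, 3.23 and 3.67 FPKM in b-KC Co and 0.0839, 0.230 and 0.247 in HF-SC Co, 21.8-fold lower (-2.08 ± 0.16, adjusted p = 4.37e-08). Mc5r reached 1 FPKM in no library outside b-KC Co, so it entered the test only through the group in which it was high, and its calls in every comparison that uses b-KC Co are a description. Its lowest HF-SC Co value was worth no more than 3 reads.

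The wax ester synthases were scarce in both control populations. Awat2 had 1.44, 2.16 and 1.73 FPKM in b-KC Co and 0.589, 0.845 and 0.385 in HF-SC Co (log2 difference -0.79 ± 0.21, adjusted p = 0.00487, 2.93-fold). Awat1 had 1.98, 1.33 and 1.69 FPKM in b-KC Co and 0.0699, 0.115 and 0.0883 in HF-SC Co. The HF-SC values of Awat1 were each worth 3 reads or fewer, so no fold is given, and the difference missed the threshold (-1.28 ± 0.54, adjusted p = 0.0559). It was called when the mouse entered as a random block (adjusted p = 0.0132) or a fixed block (adjusted p = 9.03e-05), and with a pseudocount of 0.1 (adjusted p = 0.0235). Lpl had 8.11, 4.74 and 3.68 FPKM in b-KC Co and 0.590, 0.674 and 0.730 in HF-SC Co, 8.29-fold lower (-1.91 ± 0.53, adjusted p = 0.00703). The call for Awat2 was lost without mouse 828 (adjusted p = 0.0511) and that for Lpl without 810 (adjusted p = 0.0753). Scd3 stayed under 1 FPKM in all 18 libraries (0.116 to 0.685) and was not tested.

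In mutant GFP b-KCs, 5 of the 9 genes tested fell against b-KC Co and none rose. Scd1, Soat1, Far2, Cidea and Mc5r were the genes that fell, and every b-KC GFP library lay below every b-KC Co library for each of them. Mc5r passed the filter only through b-KC Co, so its place in these counts is a description. Awat1, Awat2, Dgat2 and Lpl overlapped with the controls. Of all genes tested, 21.3% were called lower and 20.3% higher, and in 31.0% the GFP libraries lay below all Co libraries. The median log2 difference was -1.07 over the 10 genes against -0.03 over all genes tested. With libraries rescaled to a fixed total FPKM, an alternative added after the data had been seen, Awat2 (adjusted p = 0.0171) and Dgat2 (0.0193) were called lower too.

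Scd1 was 98.5, 85.4 and 54.5 FPKM in b-KC GFP, 4.23-fold below its mean in b-KC Co (log2 difference -2.10 ± 0.49, adjusted p = 0.00347). Soat1 was 6.74, 5.49 and 1.49 FPKM (-1.93 ± 0.50, adjusted p = 0.00683). Cidea was 12.1, 11.1 and 3.15 FPKM, 3.74-fold lower (-1.95 ± 0.53, adjusted p = 0.00871). In each case mouse 817 gave the lowest of the DKO* values. Far2 was 9.54, 7.61 and 3.31 FPKM, 2.91-fold lower (-1.48 ± 0.47, adjusted p = 0.0203), and this call was lost without mouse 810 (adjusted p = 0.0858) or 825 (adjusted p = 0.0581). Mc5r was 0.392, 0.429 and 0.445 FPKM, 9.66-fold lower (-1.81 ± 0.16, adjusted p = 1.41e-06), and here the 3 DKO* mice were alike.

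Of the members that did not pass, Dgat2 was 113, 101 and 45.8 FPKM (log2 difference -0.67 ± 0.36, adjusted p = 0.153) and Awat2 was 1.82, 1.37 and 0.465 (-0.37 ± 0.21, adjusted p = 0.166). Awat1 was 2.83, 3.36 and 0.371 FPKM (0.10 ± 0.54, adjusted p = 0.902) and Lpl 8.85, 7.05 and 1.22 (-0.16 ± 0.53, adjusted p = 0.837). For Awat1, the libraries of 814 and 815 lay above all 3 Co libraries and that of 817 below them. The values of Lpl in 814 and 815 were near the highest Co value, with 817 again below all controls. A further alternative added after the data had been seen used only the mice without Y-linked transcripts, 814 and 815 against 825 and 828. There Awat1 and Lpl were called higher, at log2 differences of 0.71 and 0.78, and 5 genes were called lower. In that comparison 29.1% of all genes were called higher and 29.6% lower.

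Non-mutant Tom b-KCs also had less of these transcripts than b-KC Co. Of the 9 genes tested, 7 were called lower than in b-KC Co and none higher, and for all of them the 3 Tom libraries lay below the 3 Co libraries. Mc5r is counted here too, although it passed the filter only through b-KC Co. The background was 23.3% of all genes called lower and 22.6% higher, with 34.0% having all Tom libraries below all Co libraries. Over the 10 genes the median log2 difference was -1.60, against -0.02 over all genes tested. Awat1 and Lpl missed the threshold. A list of 14 sebocyte markers without these genes summed to 199 to 507 FPKM in b-KC Tom against 894 to 1174 in b-KC Co, and its part in the fall was not tested.

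Cidea was 2.23, 5.31 and 0.955 FPKM in b-KC Tom, 11.6-fold below b-KC Co (log2 difference -3.29 ± 0.53, adjusted p = 0.000165). Scd1 was 63.1, 55.5 and 33.5 FPKM, 6.64-fold lower (-2.74 ± 0.49, adjusted p = 0.000376). Far2 was 2.68, 2.67 and 1.31 FPKM, 8.93-fold lower (-2.69 ± 0.47, adjusted p = 0.000327). For these droplet, desaturase and fatty alcohol genes, mouse 817 gave the lowest value. Soat1 was 2.65, 2.97 and 0.908 FPKM, 8.40-fold lower (-2.65 ± 0.50, adjusted p = 0.000601). Mc5r was 0.365, 0.305 and 0.217 FPKM, 13.8-fold lower (-1.95 ± 0.16, adjusted p = 5.03e-07). As in b-KC GFP, Mc5r had the smallest relative spread of these genes.

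Dgat2 was 66.3, 75.9 and 29.9 FPKM in b-KC Tom, 2.27-fold lower (log2 difference -1.26 ± 0.36, adjusted p = 0.0110), and its call was lost without mouse 810 (adjusted p = 0.0533). Awat2 was 0.554, 0.940 and 0.517 FPKM, 2.65-fold lower (-0.73 ± 0.21, adjusted p = 0.00936). All b-KC Tom libraries lay below the controls for both enzymes. Lpl was 3.10, 2.15 and 0.823 FPKM (-1.13 ± 0.53, adjusted p = 0.0942). Awat1 was 0.507, 1.02 and 0.0362 FPKM (-0.85 ± 0.54, adjusted p = 0.203), and the value of mouse 817 was worth fewer than 3 reads. In a fit of these groups alone, both were called (adjusted p = 0.0183 for Awat1 and 0.0288 for Lpl). With the mice without Y-linked transcripts alone, all 9 genes tested were called lower, against 29% of all genes.

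In mutant GFP HF-SCs, Awat1 and Dgat2 rose against HF-SC Co, and no gene of the set fell. Only Dgat2 had all 3 GFP libraries above the controls. The other genes followed the mouse. All 10 genes were above every Co library in mice 814 and 815, whereas in mouse 817 a single gene, Dgat2, was above and 8 were below. Of all genes tested, 18.5% were called higher and 20% lower, and 24.7% had all GFP libraries above all Co libraries, so that 2 of 9 called is near the share over all genes. The 10 genes had a median log2 difference of 0.92, against -0.05 over all genes tested. Sebocyte markers summed to 497, 491 and 192 FPKM in HF-SC GFP against 155 to 181 in HF-SC Co, so mouse 817 stood apart there too, and their part was not tested.

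Awat1 was 5.46, 4.67 and 0.0603 FPKM in HF-SC GFP (log2 difference 1.63 ± 0.54, adjusted p = 0.0242). In mice 814 and 815 this was the highest level of Awat1 in the series, above the 1.33 to 1.98 FPKM of b-KC Co, while the value of 817 was at the level of 3 reads or fewer that the HF-SC Co libraries had. Dgat2 was 57.4, 64.5 and 32.3 FPKM, 2.16 times its mean in HF-SC Co (1.02 ± 0.36, adjusted p = 0.0363). Both calls were lost without mouse 810, 814, 815, 825 or 828, each left out in turn, with adjusted p from 0.0665 to 0.166 for Awat1 and from 0.0811 to 0.163 for Dgat2. Awat1 also missed the threshold in a fit of these groups alone (adjusted p = 0.0674) and Dgat2 in a fit without the filter on low values (adjusted p = 0.0612).

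Scd1 was 92.9, 195 and 31.8 FPKM (log2 difference 1.23 ± 0.49, adjusted p = 0.0575) and Soat1 was 5.89, 10.3 and 1.08 (1.11 ± 0.50, adjusted p = 0.0920). Far2 was 7.83, 11.3 and 1.31 FPKM (0.92 ± 0.47, adjusted p = 0.133) and Cidea 6.81, 9.48 and 1.16 (0.76 ± 0.53, adjusted p = 0.268). In all 4, mouse 817 lay below the lowest control value and the other DKO* mice were well above the highest. Lpl was 3.79, 3.96 and 0.332 FPKM, with the same arrangement (0.93 ± 0.53, adjusted p = 0.181). Awat2 was 1.05, 0.892 and 0.494 FPKM (0.17 ± 0.21, adjusted p = 0.541), and Mc5r was 0.540, 0.423 and 0.0362 (0.15 ± 0.16, adjusted p = 0.481), the last worth fewer than 3 reads. Scd3 was 0.413, 0.335 and 0.145 FPKM.

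The number of genes called turned on mouse 817. Without it, 7 of the 9 genes tested exceeded HF-SC Co in the GFP cells at the threshold, against 24.4% of all genes. Scd1 (log2 difference 1.91), Soat1 (1.80), Far2 (1.65), Lpl (1.55) and Cidea (1.45) were the genes added. Leaving out Co mouse 810 as well kept only the mice without Y-linked transcripts, with the same DKO* libraries. In this subset 7 genes were called higher, against 24.6% of all genes. There the median ratio of DKO* to Co means over the 10 genes was 3.61. Between mouse 817 and the Co mouse that shared Y-linked transcripts with it, 810, the median ratio was 0.818, with 1 gene above and 9 below. The labels give no sex, each genotype had 1 such mouse, and the part of sex in the difference was not tested.

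In non-mutant Tom HF-SCs, limma called none of the 9 genes tested, and none had an unadjusted p under 0.05. The fit without an intensity trend also called 0. Of all genes tested, 22.3% were called higher and 22.1% lower. The median log2 difference was -0.02 over the 10 genes and -0.04 over all genes tested. Scd1 was 17.4, 24.9 and 48.4 FPKM, with mouse 817 above all controls and the other DKO* mice below (log2 difference -0.33 ± 0.49, adjusted p = 0.602). Cidea was 1.09, 1.41 and 1.67 FPKM, below all controls (-0.47 ± 0.53, adjusted p = 0.487). Awat1 was 0.260, 0.491 and 0.167 FPKM (0.25 ± 0.54, adjusted p = 0.728) and Lpl 1.34, 1.40 and 0.776 (0.37 ± 0.53, adjusted p = 0.594), both above all controls. Of all genes tested, 24.4% had all Tom libraries above all Co libraries and 24.6% below, near the 2 and 1 of the 9 members. Dgat2 (17.9, 20.4 and 29.8), Far2 (2.47, 2.23 and 2.05) and Soat1 (1.72, 2.07 and 2.59 FPKM) overlapped with HF-SC Co, as did Awat2, Mc5r and Scd3. Without mouse 817, Scd1 was called lower (-0.73), against 29.5% of all genes. Within the mice without Y-linked transcripts, Scd1 (-0.77) and Dgat2 (-0.35) were called lower and Lpl higher (0.48), against 29.4% and 30.4% of all genes.

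**Figure D2:**
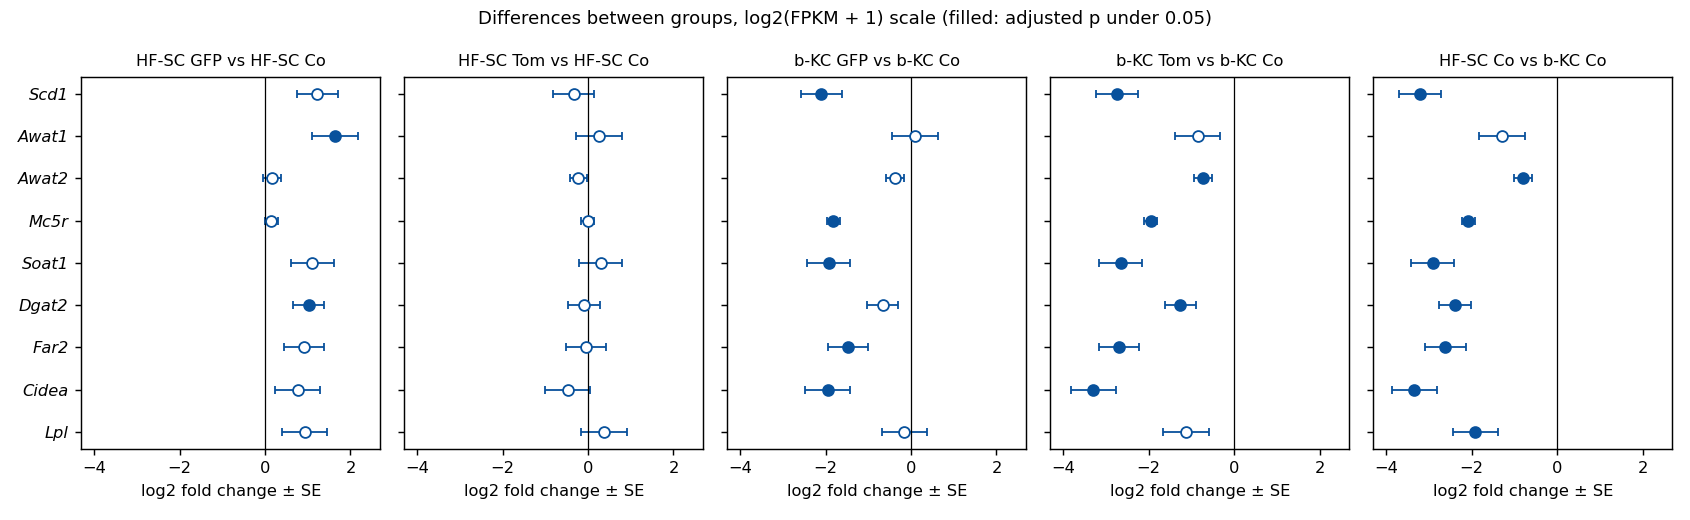
Log2 difference in FPKM + 1 (horizontal axis) of the 9 genes tested in 5 comparisons, with bars for 1 standard error and filled points for an adjusted p under 0.05. Points for b-KC Tom and HF-SC Co lie far to the left for Scd1, Soat1, Far2 and Cidea, while those of HF-SC GFP against HF-SC Co lie right of 0.

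GFP and Tom cells of the same mouse allowed mutant and non-mutant cells to be compared within an animal. In HF-SCs, all 10 genes were higher in GFP than in Tom cells of mice 814 and 815, with median GFP to Tom ratios of 3.19 and 4.10. Mouse 817 had 2 genes higher, with a median ratio of 0.648. In b-KCs, all 10 genes were higher in GFP cells of 814 and 815 and 9 of 10 in 817, with median ratios of 2.7, 1.69 and 1.64, Awat2 of 817 being the exception at 0.90. Over all genes tested, GFP exceeded Tom in 53.0%, 47.2% and 49.7% of genes in HF-SCs of the 3 mice and in 53.8%, 49.9% and 46.4% in b-KCs. The median log2 difference over the 10 genes was 0.88 in HF-SCs and 0.69 in b-KCs, against 0.02 and -0.01 over all genes tested.

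**Figure D3:**
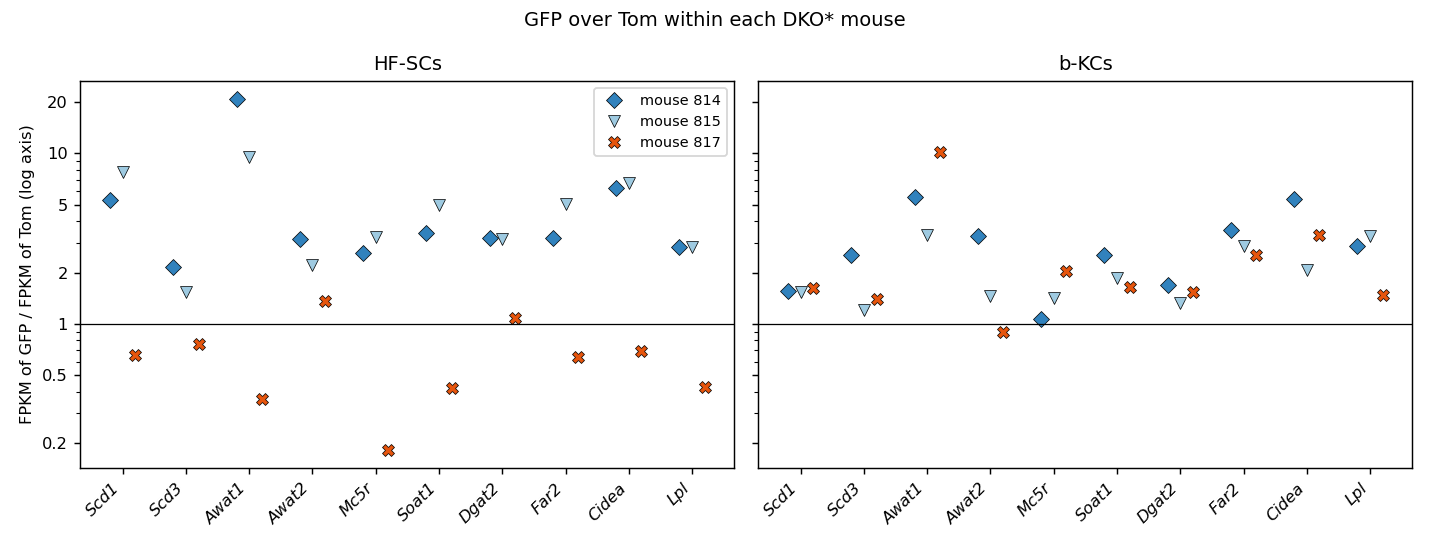
Ratio of GFP to Tom FPKM (log axis) of the 10 genes in each DKO* mouse, for HF-SCs and b-KCs, with a line at equal levels. Points of mice 814 and 815 lie above the line throughout, and those of mouse 817 lie mostly below it in HF-SCs and mostly above it in b-KCs.

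The group test across 3 mice called none of these differences. In HF-SC GFP against HF-SC Tom, limma called 0 of the 9 genes, against 8.63% of all genes in either direction, and the fit without a trend also called 0. An unadjusted p under 0.05 was found for 4, Scd1 (log2 difference 1.56 ± 0.49, adjusted p = 0.0604), Dgat2 (1.12 ± 0.36, adjusted p = 0.0745), Awat1 (1.38 ± 0.54, adjusted p = 0.144) and Cidea (1.24 ± 0.53, adjusted p = 0.192). With the mouse as a random block, Dgat2 (adjusted p = 0.0234), Scd1 (0.0276) and Awat1 (0.0332) were called, against 5.61% of all genes called higher, while a fixed block called 0. Awat2 and Dgat2 had all GFP libraries above all Tom libraries, as had 8.41% of all genes. Without mouse 817, 8 genes were called higher in HF-SC GFP, against 11.7% of all genes, and 9 within the mice without Y-linked transcripts, against 12.6%. Both counts rest on the same GFP and Tom libraries.

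In b-KC GFP against b-KC Tom, limma called 0 of the 9 genes, with or without the trend, against 1.71% of all genes in either direction. Far2 (log2 difference 1.22 ± 0.47, adjusted p = 0.269) and Cidea (1.35 ± 0.53, adjusted p = 0.282) had an unadjusted p under 0.05. The fixed mouse block called 4 genes higher in GFP cells, Far2 (adjusted p = 0.0216), Cidea (0.0380), Scd1 (0.0412) and Awat1 (0.0483), against 2.91% of all genes. Far2 and Mc5r had all GFP libraries above all Tom libraries, as had 8.48% of all genes. Without mouse 817, 6 genes were called higher, against 4.85% of all genes, and 6 within the mice without Y-linked transcripts, against 5.24%. The GFP and Tom libraries were the same in both.

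The change from Co was then compared between the cell types. For GFP cells, the log2 difference in HF-SCs exceeded that of b-KCs for 6 of the 9 genes tested, Scd1, Mc5r, Soat1, Dgat2, Far2 and Cidea, with 7.31% of all genes called in this direction and 5.22% in the other. For Tom cells the same held for 5, Scd1, Mc5r, Soat1, Far2 and Cidea, with 10.3% of all genes called in this direction and 5.58% in the other. The median over the 10 genes was 1.83 for GFP and 1.72 for Tom cells, and -0.02 over all genes tested in both. Mc5r, which was tested only because of its level in b-KC Co, is counted in both. Without mouse 815 the GFP count fell to 1, and without mouse 810 the Tom count fell to 1, Mc5r in each case. Both tests used the same Co libraries, which start from levels 5.47 to 21.8 times apart for these 6 genes. Of the Tom changes behind this term, those in b-KCs were called for all 5 genes and those in HF-SCs for none.

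Under a stricter rule, an adjusted p under 0.01 with an absolute log2 difference of at least 2, fewer genes stood out. Between the control populations, 6 of the 9 passed, against 5.65% of all genes. These 6 include Mc5r, which was tested only through its level in b-KC Co. For b-KC Tom 4 passed, against 2.75%. Scd1 alone passed for b-KC GFP, where 1.87% of all genes did. No gene passed in HF-SC GFP against HF-SC Co, where 3.07% of all genes did. For the differences in response, 1 gene passed for GFP cells, Scd1 (0.863% of all genes), and 1 for Tom cells, Soat1 (1.98%).

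Other genes of lipid synthesis, storage and uptake moved in both directions. Of a list of 48 such genes, 32 were tested. Against the control population of the same cell type, 4 were called higher and 12 lower for b-KC Tom, against 22.6% and 23.3% of all genes. For b-KC GFP the counts were 4 higher and 6 lower, against 20.3% and 21.3% of all genes. HF-SC GFP had 10 higher and 5 lower (18.5% and 20% of all genes), and HF-SC Tom 10 higher and 4 lower (22.3% and 22.1%). Between the controls, 5 were higher and 14 lower in HF-SCs (24.6% and 27.3%). GFP exceeded Tom for 3 and lay below it for 2 in HF-SCs, where 8.63% of all genes were called in either direction, and in b-KCs 1, Plin2, was higher, against 1.71%. Medians of the log2 differences of the list were -0.08 (b-KC Tom), -0.03 (b-KC GFP), 0.08 (HF-SC GFP) and 0.11 (HF-SC Tom), beside -0.02, -0.03, -0.05 and -0.04 over all genes tested.

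Of 7 regulators tested in this list, 4 were called lower in b-KC Tom and none higher, where 23.3% of all genes were called lower. Pparg, a master regulator of lipid storing cells, was 9.09, 8.95 and 7.38 FPKM in b-KC Co and 1.99, 1.83 and 1.14 in b-KC Tom (log2 difference -1.84 ± 0.44, adjusted p = 0.00307). Gata6, found in sebaceous duct cells, was 4.45, 3.51 and 4.71 FPKM in b-KC Co and 0.266, 0.603 and 0.443 in b-KC Tom (-1.86 ± 0.24, adjusted p = 2.54e-05). The sterol regulator Srebf1 (-0.66 ± 0.25, adjusted p = 0.0405) was called lower too, but not without the filter on low values (adjusted p = 0.0663). Prdm1 (0.62), Nr1h3 (-0.40) and Insig1 (-0.04) were not called. The droplet coat protein Plin2 was 65.8, 59.6 and 50.3 FPKM in b-KC Co and 19.5, 19.6 and 13.6 in b-KC Tom (-1.69 ± 0.30, adjusted p = 0.000359). The fatty acid elongase Elovl3 was 48.5, 30.3 and 24.1 FPKM against 3.69, 5.53 and 1.86 (-2.93 ± 0.82, adjusted p = 0.00856). Mgll, a monoglyceride lipase, also fell (-1.93 ± 0.38, adjusted p = 0.00089).

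Among the pathway genes, 4 rose in b-KC Tom. Far1, the reductase related to Far2, was higher (log2 difference 1.14 ± 0.21, adjusted p = 0.000573), as were Dgat1, the other triglyceride synthase (1.00 ± 0.22, adjusted p = 0.00163), and Agpat2, an acyltransferase of glycerolipid synthesis (0.86 ± 0.16, adjusted p = 0.000551). Far1 and Dgat1 thus differed in direction from Far2 and Dgat2 in the same libraries. The fourth was Fabp5, a fatty acid binding protein of keratinocytes, at 407, 282 and 281 FPKM in b-KC Co and 5067, 5336 and 1229 in b-KC Tom (3.33 ± 0.82, adjusted p = 0.00408).

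In b-KC GFP, the regulators Gata6 (log2 difference -0.99 ± 0.24, adjusted p = 0.00436) and Srebf1 (-0.77 ± 0.25, adjusted p = 0.0230) fell, with Mgll (-1.35 ± 0.38, adjusted p = 0.0112) and the acyltransferase Gpam (-1.16 ± 0.27, adjusted p = 0.00350). Pparg was 9.77, 5.41 and 2.31 FPKM in b-KC GFP and was not called. Far1 (0.96 ± 0.21, adjusted p = 0.00259), Agpat2 (0.79 ± 0.16, adjusted p = 0.00148) and Fabp5 (2.83 ± 0.82, adjusted p = 0.0130) rose, as in b-KC Tom. Plin2 was 74.2, 56.9 and 23.3 FPKM in b-KC GFP, higher than in b-KC Tom (1.37 ± 0.30, adjusted p = 0.0290), a call lost without the filter on low values (adjusted p = 0.0552).

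In HF-SC GFP, the 4 desaturase and elongase genes tested besides the members were called higher, where 18.5% of all genes were. Fads2 is one of these, and it reached 1 FPKM only in the DKO* HF-SCs of mice 814 and 815, so its calls against HF-SC Co are a description. Scd2, a paralogue of Scd1, rose from 8.84, 15.9 and 8.55 FPKM among controls to 66.9, 78.2 and 32.4, with all DKO* mice above the controls (log2 difference 2.27 ± 0.41, adjusted p = 0.00048). Fads2 (1.15 ± 0.20, adjusted p = 0.000305), Fads1 (0.82 ± 0.21, adjusted p = 0.00597) and Elovl3 (2.20 ± 0.82, adjusted p = 0.0434) rose as well. Elovl3 was 21.7, 29.7 and 0.604 FPKM, with mouse 817 below the lowest control (0.655), and its call was lost without the filter on low values (adjusted p = 0.0750). The lipase Lipg was 12.9, 10.1 and 5.98 FPKM against 1.44, 2.02 and 1.54 in HF-SC Co (1.95 ± 0.24, adjusted p = 1.67e-05). Pparg had 1.34, 0.696 and 1.04 FPKM among the controls, reached 3.14, 3.34 and 0.285 in GFP cells, and was not called. Scd2 (1.64 ± 0.41, adjusted p = 0.00470), Fads2 (0.84 ± 0.20, adjusted p = 0.00304) and Lipg (0.79 ± 0.24, adjusted p = 0.0160) also rose in HF-SC Tom. Fads1 (0.36) and Elovl3 (0.81) were not called there. Fabp5 rose from 36.3, 33.7 and 41.3 FPKM among these controls to 2667, 1494 and 443 for mutant cells (4.99 ± 0.82, adjusted p = 0.000216) and to 2235, 1291 and 440 for Tom cells (4.83 ± 0.82, adjusted p = 0.000225). Fabp4, a fatty acid binding protein of adipocytes and endothelium, went from a mean of 49.9 ± 7.27 FPKM (SD, n = 3) among controls down to 3.74 ± 2.95 in GFP cells (-3.73 ± 0.69, adjusted p = 0.000541) and up to 819, 567 and 84.2 FPKM in Tom cells (2.75 ± 0.69, adjusted p = 0.00444).

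Markers of other cells moved with the same libraries. The 14 sebocyte markers summed to 1174, 951 and 894 FPKM for b-KC Co, 1127, 1025 and 356 for its GFP and 411, 507 and 199 for its Tom counterpart. The sums for HF-SC Tom were 236, 237 and 175 FPKM. Among the b-KC GFP libraries, those of 814 and 815 were at the level of b-KC Co, and mouse 817 gave the lowest sum of each DKO* population. Of its 10 genes tested, 7 were called lower for b-KC Tom, 4 for b-KC GFP and 8 for HF-SC Co against b-KC Co, and none was higher there. The shares of all genes called lower in these comparisons were 23.3%, 21.3% and 27.3%. In HF-SC GFP 4 were called higher and 1 lower, against 18.5% and 20% of all genes, and in HF-SC Tom 1 was called lower, against 22.1%. Of the 14 markers, 9 are also among the 48 pathway genes. Cidec, Dgat2l6, Fads6 and Plin5 were listed at 0 in some libraries.

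Markers of the junctional zone and isthmus, the part of the follicle next to the gland, summed to 510 to 593 FPKM for b-KC Co, 273 to 478 for its GFP and 136 to 180 for its Tom counterpart, with 3 and 4 of 5 genes called lower in the DKO* populations and 1 higher in b-KC GFP. These lists are small, and the share of all genes called lower was 21.3% for b-KC GFP and 23.3% for b-KC Tom, with 20.3% called higher for b-KC GFP. Suprabasal markers summed to 3576 to 4537 FPKM for b-KC Co, 1772 to 2210 for its GFP and 1321 to 3267 for its Tom counterpart, with 2 of 4 genes tested called lower in each DKO* population. In HF-SC GFP, suprabasal markers summed to 1150, 1475 and 640 FPKM against 306 to 429 in HF-SC Co, and junctional zone markers to 281, 296 and 177 against 117 to 127, so that in both lists mouse 817 was the lowest of the DKO* mice. In each of both lists 2 genes were called higher there, against 18.5% of all genes. Of the 5 junctional zone genes, 2 had a positive and 3 a negative log2 difference there, with a median of -0.14. Bulge markers summed to 3249 to 3342 FPKM for b-KC Co, 625 to 1313 for its GFP and 304 to 875 for its Tom counterpart, with 1 and 4 of 8 genes called lower. In the bulge gate itself they summed to 12730, 12960 and 1198 FPKM for HF-SC Co (Krt15 is listed at 0 in the last), 3593 to 6011 for its GFP and 3295 to 6587 for its Tom counterpart, with 3 and 5 of 8 called lower, against 20% and 22.1% of all genes.

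Markers of endothelium, where Lpl and Fabp4 can also be found, summed to 84.4 to 140 FPKM for HF-SC Co, 1.36 to 38.0 for its GFP and 867 to 2460 for its Tom counterpart, and to at most 6.5 in b-KC libraries. All 11 tested were called lower in HF-SC GFP, against 20% of all genes, and higher in HF-SC Tom, against 22.3%. Lpl itself ranged from 0.332 to 3.96 FPKM among the HF-SC GFP libraries, against 0.776 to 1.40 for HF-SC Tom. Adipocyte markers summed to 1.83 to 4.82 FPKM, with Adipoq, Retn and Cfd at 0 in at least 1 library of most groups. Fibroblast markers were at 13.9 to 120.5 FPKM in HF-SC and at most 6.16 in b-KC libraries. Muscle markers summed to at most 2.11 FPKM. Leukocyte markers summed to 2.02 to 3.20 FPKM in b-KC GFP against 0.535 to 0.671 in b-KC Co, with both genes tested called higher (20.3% of all genes). They reached 2.41 to 8.10 in HF-SC GFP and 2.37 to 5.86 in HF-SC Tom against 1.26 to 1.62 in HF-SC Co, with 1 of 2 called higher in each. Melanocyte markers summed to 16.5, 17.7 and 7.32 FPKM in HF-SC GFP against 3.68 to 5.98 in HF-SC Co, with 3 of 5 called higher, or 2 without the filter on low values, against 18.5% of all genes. Macrophage and Langerhans markers summed to 128, 117 and 72.1 FPKM in HF-SC GFP against 78.5 to 79.4 in HF-SC Co, with 1 of 3 tested called higher, against the same 18.5%. In b-KC GFP the latter list summed to 115, 117 and 46.7 FPKM against 66.6 to 88.7 in b-KC Co, with 1 of 3 called higher. In both lists mouse 817 again gave the lowest HF-SC GFP sum. Basal keratinocyte markers summed to 16070 to 17360 FPKM in b-KC Co, 6305 to 10370 in b-KC GFP and 5780 to 16070 in b-KC Tom. These sums include Krt14, which was listed at 0 in some DKO* libraries. In b-KC GFP and b-KC Tom 2 of 6 genes were called lower and none higher, against 21.3% and 23.3% of all genes called lower. The part of all these markers in the results for the lipid genes was not tested.

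**Figure D4:**
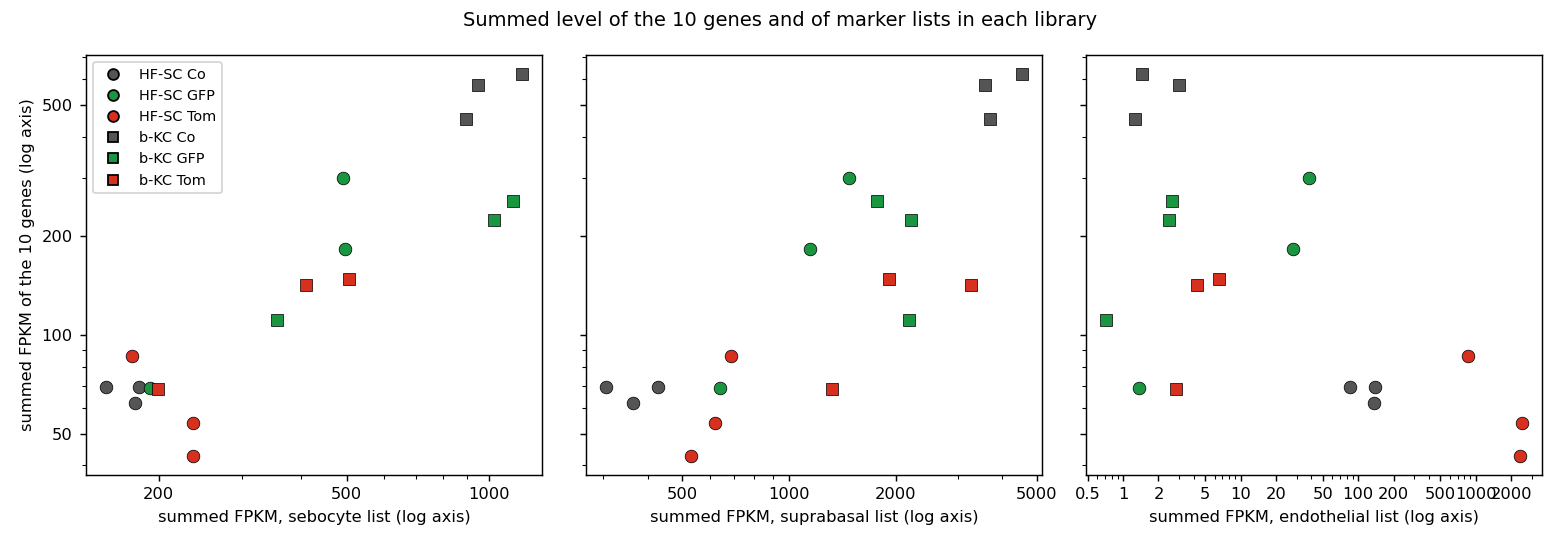
Summed FPKM of the 10 genes (vertical axis, log) against the summed FPKM of the sebocyte, suprabasal and endothelial marker lists (horizontal axes, log) in each of the 18 libraries, coloured by population. The b-KC Co libraries lie at the upper right for the sebocyte and suprabasal lists, and the HF-SC Tom libraries stand apart at the right for the endothelial list.

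Across the 18 libraries, the 9 genes tested had median Pearson correlations to the other members from 0.706 (Awat1) to 0.906 (Cidea) on the log2(FPKM + 1) scale. The lowest pair was Awat1 with Mc5r (0.378), where Mc5r ranked 1488 among the genes most like Awat1. These are descriptions over libraries that share mice and populations. Among 12750 other genes, the most alike were Fa2h for Scd1 (0.963), Gsdma for Awat1 (0.95), Nudt17 for Awat2 (0.931), Gm436 for Mc5r (0.971), Cdkn2b for Dgat2 (0.983), Vsig10l for Cidea (0.987) and Adig for Lpl (0.952). Soat1 and Far2 were each other's nearest gene (0.972).

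Ordered by mean, b-KC Co ranked first of the 6 groups for Scd1, Awat2, Mc5r, Soat1, Dgat2, Far2 and Cidea. For Scd1, Mc5r, Soat1, Far2 and Cidea its libraries did not overlap with the next group. For Awat2 and Dgat2 the next group, b-KC GFP, overlapped with it. Awat1 ranked highest in HF-SC GFP at 3.40 ± 2.9 FPKM (SD, n = 3), overlapping with b-KC GFP at 2.19 ± 1.6 and b-KC Co at 1.66 ± 0.32. Lpl ranked highest in b-KC GFP at 5.71 ± 4.0 FPKM, overlapping with b-KC Co at 5.51 ± 2.3, and Scd3 in b-KC GFP at 0.469 ± 0.27, overlapping with the next group at each step. HF-SC Co was lowest for Awat1, Soat1, Lpl and Scd3, HF-SC Tom for Scd1, Awat2, Mc5r, Dgat2 and Cidea, and b-KC Tom for Far2.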

How the data were processed

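mRNA was sequenced from sorted cells in 18 libraries, 3 per group, from 6 mice. Per the labels, libraries were made from 4 to 10 ng of RNA with SMART-Seq v4 and Nextera XT, without strand, and sequenced as 51-base single reads. The authors aligned reads to NCBIM37 (mm9) by means of TopHat 2.0.10 with Bowtie 1.0.0, plus SAMtools, following FastQC 0.11.0, allowing 2 mismatches and 20 multiple hits, and the deposited FPKM values were made with Cufflinks 2.2.1 (the submitters' processing notes also name mm10). Multiple hits and fragment-length scaling can move FPKM of related genes.

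FPKM values were tested with limma 3.58.1 (R 4.3.3) on log2(FPKM + 1), 1 mean per group, trended variance, over 12751 genes that reached 1 FPKM in 3 or more of all 18 libraries. A gene was called at a Benjamini-Hochberg adjusted p under 0.05. Fold changes on this scale understate low genes. On simulated data for HF-SC GFP against HF-SC Co (12751 genes), 98 of 100 genes changed by 2 log2 units and 11 of 12551 unchanged genes were called. The simulation drew libraries as independent, without shared mice, so these rates need not hold for the data. The genes named were the 10 members, all in every comparison, and genes of the listed pathway; the members and lists were chosen with earlier results of these data known. Between 78.6% and 83.3% of low values of 6674 single-transcript genes lay within 0.1 of a whole read, too few for a count test. Replicates were separate mice. Populations of 1 mouse were paired by the mouse number in the labels, and their deviations from group means correlated at 0.0838 to 0.70 in 21 pairs, 20 of them over 0.1. Alternatives were another pseudocount (0.1), no filter, a stricter call, only the groups compared, no trend, 2 rescalings, the mouse as a block, each mouse left out, and the mice without Y-linked transcripts. The fixed-total rescaling and the Y-linked split were chosen after seeing the data. Figures were drawn with matplotlib 3.10.9.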

Additional observations from a re-analysis of the deposited data

Results flagged for a closer look

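The change from Co to DKO* differed between HF-SCs and b-KCs by an interaction test (limma, Benjamini-Hochberg over 12751 genes) for these genes, as HF-SC minus b-KC on the log2(FPKM + 1) scale. For GFP cells the differences were 3.32 ± 0.69 (SE) for Scd1 (adjusted p = 0.00532), 3.04 ± 0.71 for Soat1 (0.0108), 2.71 ± 0.75 for Cidea (0.0257), 2.40 ± 0.66 for Far2 (0.0266), 1.96 ± 0.22 for Mc5r (0.000130) and 1.69 ± 0.52 for Dgat2 (0.0427). For Tom cells they were 2.95 ± 0.71 for Soat1 (adjusted p = 0.00961), 2.82 ± 0.75 for Cidea (0.0172), 2.66 ± 0.66 for Far2 (0.0124), 2.41 ± 0.69 for Scd1 (0.0256) and 1.94 ± 0.22 for Mc5r (4.91e-05). Awat1, Awat2 and Lpl did not pass in either.

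In GFP cells, Scd1, Soat1, Far2 and Cidea in mouse 817 lay below all controls in both cell types, while in 814 and 815 they lay above the controls in HF-SCs and below them in b-KCs. Left out singly, mouse 810, 814, 815, 825 or 828 ended the GFP calls for Dgat2, Far2 and Cidea. The call for Soat1 ended without 810 or 815 and that for Scd1 without 815 (adjusted p = 0.0503). Dgat2 also missed the threshold without the filter on low values (0.0715), and Cidea with a pseudocount of 0.1 (0.0578). For Tom cells, Cidea was lost without 810, 814, 825 or 828, Scd1 without 810, 825 or 828, and Soat1 and Far2 without 810. Mc5r was above 1 FPKM in b-KC Co alone, so its differences are a description.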

How the results depend on the processing

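Of the 10 members, the number called at an adjusted p under 0.05 ranged as follows when each mouse was left out in turn: 0 to 7 in HF-SC GFP against HF-SC Co (2 with all mice, 7 without mouse 817), 0 to 1 in HF-SC Tom (0), 4 to 6 in b-KC GFP (5), 6 to 9 in b-KC Tom (7), 7 to 8 between controls (8), 0 to 8 in HF-SC GFP against Tom (0, 8 without 817), 0 to 6 in b-KC GFP against Tom (0, 6 without 817), 1 to 8 for the GFP difference in response (6) and 1 to 7 for the Tom difference (5). The low ends were 1 without 815 for GFP and 1 without 810 for Tom. Mice without Y-linked transcripts gave 7, 3, 9 and 6 calls in HF-SC GFP, HF-SC Tom, HF-SC GFP against Tom and b-KC GFP against Tom. No filter gave 1 and the groups compared alone 1 in HF-SC GFP. The groups compared alone added Awat1 (adjusted p = 0.0183) and Lpl (0.0288) in b-KC Tom, Awat1 between controls (3.55e-05), and Awat1 (0.0261) and Lpl (0.0312) for the Tom difference in response. The stricter rule gave 0 in HF-SC GFP, 1 in b-KC GFP, 4 in b-KC Tom, and 1 for each difference in response. Rescaling to a fixed total added 4 calls over all comparisons and ended none. It called 1 gene in HF-SC GFP against Tom and moved the median of all genes to -0.19, -0.18, -0.30 and -0.25 in the 4 comparisons with Co. With the mouse as a random replicate block, 3 were called in HF-SC GFP against Tom, and with a fixed block 4 in b-KC GFP against Tom and 0 in HF-SC GFP against Tom. Blocks also added the call of Awat1 between controls and changed no other call.

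Directions turned for genes that had not been called. In HF-SC Tom, Mc5r (-0.01) was 0.006 with a pseudocount of 0.1 and ran from -0.071 to 0.030 with each mouse left out, Dgat2 (-0.09) from -0.30 to 0.054 and Far2 (-0.04) from -0.14 to 0.12. In b-KC GFP, Awat1 (0.10) was -0.051 with a pseudocount of 0.1, -0.17 at a fixed total and -0.21 to 0.62 with each mouse left out, and Lpl (-0.16) ran from -0.57 to 0.51 (without 817) and was 0.78 (called) in mice without Y-linked transcripts. The cause was not tested. Of 1161 values recomputed under an alternative, 1004 kept their direction and side of the threshold. Awat1 was at 3 reads or fewer in 5 libraries, where its level could not be told from 0.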
